A study of Mus musculus with 8 samples.

Results

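Zinc finger and chromatin regulator genes are described here from the authors' deposited table, which lists positions whose C-to-U editing differed between young and aged mouse cortex cells. They are every row whose gene name began with a family prefix (Zfp, Zbtb, Zmynd, Chd, Smarc, Baz, Brd, Kmt, Setd, Nsd or Ncor among them) or was Ash1l, Bptf, Atrx, Ankrd11 or Ankrd12, leaving out Zfp91 and the cadherins. The rule uses names and no measured value. It found 64 of the 2055 listed sites, in 39 of 789 genes. No Zfhx, Zeb, Zmym, Kdm, Arid or Hdac gene had a listed site. Every listed site has an adjusted p under 0.05 in the authors' deposited table, at least 25 methylated cells over both ages and, in either direction, a log2 ratio of at least 0.58, so a listed site had to differ.

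The aged samples were 8 libraries (4 lanes of each of 2 sublibraries) of dissociated cortex cells from APOBEC1-YTH mice that were 12 to 14 months old when tamoxifen began (20 mg/kg every 24 h for 5 days), with cortex taken 7 days after the last dose. They are 1 group, are not biological replicates, and how many mice they came from is not given in these sources. The young cells were deposited in another series, and here only the table holds their values. The labels do not state their age, treatment or library kit, nor the promoter behind the transgene. The sample protocols describe whole cells and polyA RNA, while the series' design text describes sorted neuronal nuclei and total RNA, so which cells the table holds could not be checked against markers.

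APOBEC1-YTH joins a cytidine deaminase to the YTH domain, which binds N6-methyladenosine (m6A) in RNA, and it converts a C beside the methylated A to U. A C-to-U change is therefore read as a sign of m6A nearby, which was not tested here. C2H2 zinc finger proteins bind DNA in a sequence-specific way, remodelers such as the SWI/SNF and CHD complexes move nucleosomes with ATP, and lysine methyltransferases write marks on histones that bromodomain and other reader proteins bind. Many genes of these families are long, are expressed in neurons, and cause neurodevelopmental disorders when mutated. In m6A maps generally, the mark lies after G or A and before C, often in long exons and near stop codons.

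The sequences below are the 21 RNA-sense bases around the edited C of chosen sites, 5′ to 3′, from GENCODE M21 transcripts (GRCm38, the mm10 build). Capitals mark the edited C, the last capital, and the 3 bases before it. The first set holds the sites with the largest increases in aged cells and higher sites of other families with the same letters. An Ankrd11 site with the same letters was lower in aged cells and is not shown. The second set shows some of the 13 adenine-rich sites, and the third the sites with no methylated aged cell.
Smarca4: gaagattGAACaggagcgcaa
Smarca2, exon 7: gaagataGAACaggagaggaa
Smarca2, exon 32: tgacgagGAACaggaagagaa
Zfp318: gcagtctGAACtggacaaagt
Nsd3: tcagagaGAACgtgcccaatg
Kmt2a, exon 28: ctagagcGAACagggagcagc
Smarcc1: aggtgcaGAACgggagtggga
Chd5, exon 7: ggaggatGAACgggaggactc
Chd5, exon 15: caactggGAACgggagtttga
Chd4: ggaggtaGAACgggaaatcat
Baz1b, exon 8: gagattgGAACgggaagctga
Zfp609: gaaagagGAACgggaccgaaa
Kmt2e, exon 23: gcagtgaAAACggggagcagg
Ankrd12, exon 13: aaggaaaGGACaggacaaagc
Zfp612: aaaaaaaAAACtaaaaaaaca
Zfp704, position 9438668: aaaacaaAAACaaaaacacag
Ncor1, exon 25: gaagccaAAACtcacaacctg
Chd9, exon 12: ctccctcTAACatttggaaga
Zfp866: cagaggtAGACtacttcccca

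At member sites mean C-to-U was more often higher than lower in aged cells. The largest increases lay in Smarca4 and Smarca2 (SWI/SNF ATPases), Zfp318 (zinc finger), and Nsd3, Kmt2e and Kmt2a, grouped by name as methyltransferases. Mean C-to-U, taken over all cells of an age with cells lacking a call counted as 0, was higher in aged cells at 38 of 64 sites (59.4%, exact binomial 95% interval 46.4 to 71.5 across sites) and lower at 26. Over all listed sites 41.5% were higher. The sets differ in region, with 71.9% of member sites and 38.7% of all listed sites in coding sequence. Over the whole list 58.0% of coding sites and 24.1% of 3′ UTR sites were higher. The median log2 ratio of aged over young was 1.08 (exact 95% interval -1.16 to 1.60) over the 64 member sites and -0.88 over all 2055. Taking each gene by its site with the largest absolute difference, 24 of 39 genes were higher and 15 lower, beside 55.8% higher over all listed genes, so the gene count lay near the background. Increases reached 5.23 percentage points and decreases 1.52. These counts describe the table. They have no test, because each age has 1 pooled value per site and no replicate.

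The depth behind a value is the number of cells. The table covers 2623 young and 846 aged cells, and member sites had 25 to 179 methylated cells over both ages, with a median of 41. Shares of methylated cells carry exact binomial (Clopper-Pearson) 95% intervals that cover counting error only. Reads per site are not in the table. A cell without reads counts as unmethylated, so expression and coverage enter the share and the mean, and their part in the differences was not tested.

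**Figure D1:**
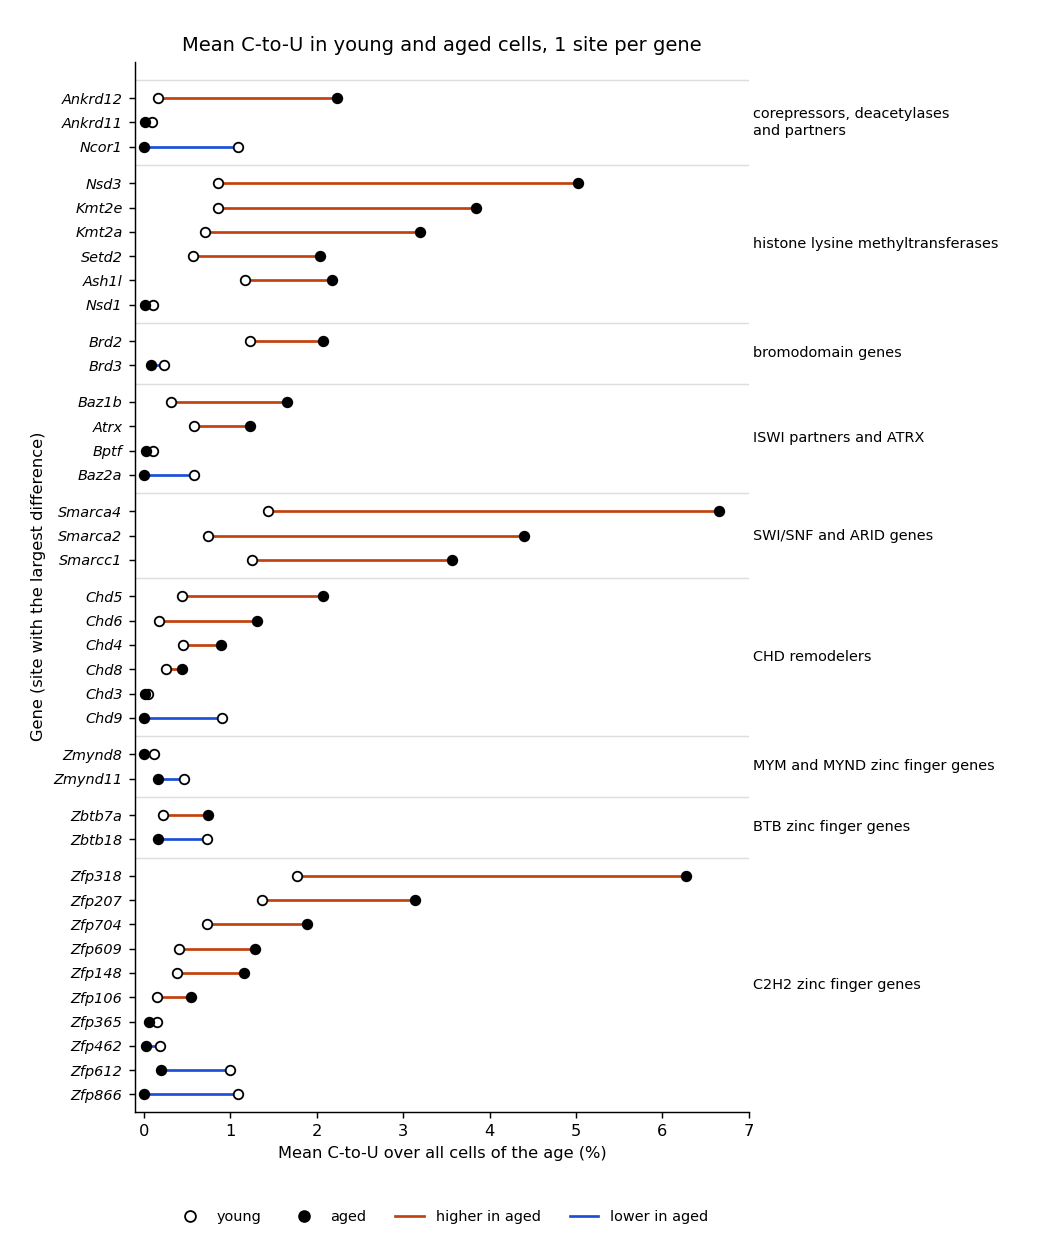
Mean C-to-U over all cells (%, x axis) in young (open circles) and aged cells (filled circles) at the site with the largest absolute difference of 38 of the 39 genes (y axis), grouped by family, with no replicate error available. Lines are orange for the 23 drawn genes higher in aged cells and blue for the 15 lower, and Smarca4, at 1.43% and 6.66%, spans the widest range.

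All 3 SWI/SNF genes were higher in aged cells at their leading site, beside 55.8% of all listed genes. Smarca4, which encodes a catalytic ATPase of SWI/SNF complexes, had 1 listed site, in coding sequence (exon 8 of 34, chromosome 9, position 21639362). Young cells averaged 1.43% and aged cells 6.66%, which is a log2 ratio of 2.22. The share of methylated cells was 2.13% (1.62 to 2.76) at the young age and 7.80% (6.08 to 9.82) at the older one, and editing within them reached 67.2% and 85.4%. Both the share and the level within cells were thus higher in aged cells.

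Smarca2 encodes the alternative ATPase of the same complexes and had the most member sites, 6, of which 3 were higher and 3 lower. At its exon 7 site (chromosome 19, position 26649128) the mean was 0.745% in young and 4.40% in aged cells, and the share was 1.22% (0.836 to 1.72) and 6.50% (4.93 to 8.38). The Smarca2 exon 7 and Smarca4 exon 8 sites occupy matching places in the paralogs: both exons are 174 bases long, both edited C lie at base 145 of the exon, and 18 of the 21 bases around them are identical, the highest count of any pair of sites from different genes outside the adenine-rich windows. The log2 ratios of the mean were 2.56 and 2.22.

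The other Smarca2 sites diverged. Its exon 32 site, 44 bases before the end of the coding sequence, went from 0.636% to 3.72%, with C-to-U within methylated cells at 38.8% and 69.9%. In exon 28, a pair of sites 6 bases apart was lower, at 0.106% to 0.0145% and 0.0919% to 0.0154%, while another site 52 bases on was higher, at 0.0666% to 0.217%. The 3′ UTR site was lower by mean, at 0.589% and 0.226%, with nearly equal shares of methylated cells of 4.35% (3.60 to 5.20) and 4.26% (3.00 to 5.84). The exon 32 and 3′ UTR sites lie under 4931403E22Rik, annotated on the opposite strand, and strand use in counting is not given. Smarcc1, a core scaffold subunit, was higher at a 3′ UTR site, from 1.26% to 3.56%, where C-to-U within methylated cells was 67.3% and then 94.1%.

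Genes grouped by name as histone lysine methyltransferases had 9 sites, all in coding sequence. Of these, 6 were higher in aged cells, beside 58.0% of all listed coding sites. At the leading site 5 of their 6 genes were higher, beside 55.8% of all listed genes. Nsd3, of the NSD family, went from 0.863% to 5.02% in exon 5 of 23 (chromosome 8, position 25662768), while its share was 1.60% (1.16 to 2.16) and 6.86% (5.25 to 8.77). Kmt2e, an MLL family member, was higher at both sites, led by exon 23 at 0.860% and 3.84%. There the share carried the difference, at 1.22% (0.836 to 1.72) and 5.67% (4.21 to 7.45), while C-to-U within methylated cells was 70.5% and 67.7%. Setd2, which methylates histones along transcribed genes, went from 0.570% to 2.03%.

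Kmt2a, the founding MLL gene, had a site in each direction. Exon 28 went from 0.707% to 3.19%, and exon 30 from 1.74% to 0.219%, the largest decrease among the 64 sites in percentage points. At the exon 30 site the edited C followed a G, the shares of methylated cells were 2.25% (1.72 to 2.89) and 1.65% (0.908 to 2.76), with overlapping intervals, and C-to-U within methylated cells was 77.3% and 13.3%. Ash1l was also split, at 1.18% and 2.18% in exon 14 and at 0.165% and 0.0215% in exon 5. Nsd1 was low at both ages, at 0.101% and 0.0128%.

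Among the CHD remodelers, ATPases with chromodomains, 7 of 11 sites and 4 of 6 genes were higher, beside 55.8% of all listed genes. In coding sequence 5 of 9 sites were higher, near the 58.0% of all listed coding sites. Chd5, a neuronal member, was higher at both coding sites, from 0.440% to 2.08% in exon 7 and from 0.417% to 1.27% in exon 15. Chd6 went from 0.174% to 1.31%, on a share of 0.839% (0.526 to 1.27) and 6.26% (4.73 to 8.11) and C-to-U within them at 20.8% and 20.9%. The ages differed there in the share of cells and hardly in the level within them. Chd4, the ATPase of the NuRD complex, went from 0.454% to 0.890%.

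Chd8, a gene linked to autism, was higher at a pair of 3′ UTR sites 17 bases apart, at 0.183% and 0.341% and at 0.260% and 0.441%. Gm26590 is annotated over them on the opposite strand. Chd9 had 4 sites, 1 higher and 3 lower. Those in exon 4, spaced 7 bases apart, differed in direction: 0.322% to 0.134%, 0.0976% to 0.0539%, and 0.0338% to 0.467%. All 3 had larger shares of methylated cells in aged cells, up to 0.801% (0.496 to 1.22) against 5.56% (4.11 to 7.32) at the middle site, and editing inside those cells at the middle site was 12.2% for young and 0.971% for aged. Chd3 was lower, at 0.0496% and 0.0133%.

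Genes of ISWI partners and ATRX, which place or remodel nucleosomes, had 5 of 7 sites higher. All 7 were coding, and 58.0% of all listed coding sites were higher. Baz1b, a bromodomain protein deleted in Williams syndrome, was higher at all 3 of its coding sites, from 0.642% to 1.74%, 0.314% to 1.65% and 0.185% to 1.12%. Atrx, which loads a histone variant onto repeats, was higher at both sites, which lie 159 bases apart in a 3014-base exon. Their means were 0.582% and 1.23%, and 0.0151% and 0.226%. Baz2a, a partner in ribosomal gene silencing, went from 0.582% to 0.00563%, but on 24 methylated young cells and 1 aged cell. In the authors' deposited table its adjusted p was 0.038. Bptf, the largest subunit of the NURF remodeler, was lower by mean, at 0.10% and 0.0216%. Its share of methylated cells was 0.839% (0.526 to 1.27) in young and 2.72% (1.73 to 4.05) in aged cells. C-to-U within those cells was 12.0% and only 0.796%.

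Corepressor and partner genes had 6 of 10 sites higher. In coding sequence 5 of 9 were, near the 58.0% of all listed coding sites. Ankrd12, an ankyrin repeat cofactor, was higher at all 4 sites. Its 3′ UTR site went from 0.163% to 2.24%, and 3 sites in its 4658-base exon 9 went from 0.341% to 2.21%, 0.168% to 0.413% and 0.285% to 1.65%. C-to-U within methylated cells at the 3′ UTR site was 35.7% in young and 79.0% in aged cells. Ankrd11, its paralog and the KBG syndrome gene, was lower at both sites of its 6518-base exon 9, at 0.142% and 0.0813% and at 0.0981% and 0.0102%. The share of cells called methylated was nonetheless higher at both, but C-to-U within those aged cells was only 2.02% and 0.508%. Gm20388 and Gm45894 are annotated over the Ankrd11 sites on the opposite strand.

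Ncor1, a scaffold that recruits a histone deacetylase to nuclear receptors, had a higher site in exon 22 (0.260% to 1.27%) and lower sites in exon 14 (0.151% to 0.0313%) and exon 25. Brd2, a bromodomain reader of acetylated histones, went from 1.22% to 2.07% in coding sequence. Brd3, of the same family, was lower at a pair of 3′ UTR sites 19 bases apart, at 0.235% and 0.0852% and at 0.0742% and 0.0151%.

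Of the C2H2 zinc finger genes 6 of 10 were higher, beside 55.8% of all listed genes. All 4 of their coding sites were higher and 3 of 7 sites in 3′ UTRs were, beside 58.0% of all listed coding sites and 24.1% of all listed sites in 3′ UTRs. Zfp318, a nuclear zinc finger protein, led them at exon 6 of 10 (chromosome 17, position 46405929), where the mean went from 1.77% to 6.27% and the share of methylated cells was 3.35% (2.7 to 4.12) and 7.33% (5.66 to 9.30) and C-to-U within them at 52.7% and 85.6%. Zfp207, a spindle assembly factor, went from 1.37% to 3.14% at a site that lies in the 3′ UTR of a transcript annotated for nonsense-mediated decay and in no exon of its coding transcripts. Zfp704 was higher at both 3′ UTR sites, led by 0.735% to 1.88%, where the share was 3.43% (2.77 to 4.2) and 10.5% (8.53 to 12.8), the highest aged share among member sites.

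Among coding C2H2 sites, Zfp148, Zfp609 and Zfp106 went from 0.388% to 1.16%, 0.412% to 1.29% and 0.151% to 0.540%. Gm26899 is annotated over the Zfp106 site on the opposite strand. Zfp612 was lower, at 1.0% and 0.198%, with close shares of methylated cells of 4.19% (3.46 to 5.03) and 4.02% (2.80 to 5.57), and Gm17720 is annotated there on the other strand. Zfp462 and Zfp365 were lower at low levels, 0.187% to 0.0231% and 0.147% to 0.0579%. Of the BTB genes, Zbtb18, a repressor needed for cortical neuron development, was lower (0.729% to 0.161%, on 29 and 3 methylated cells), and Zbtb7a was higher (0.221% to 0.744%). The MYND genes Zmynd11 and Zmynd8, readers of histone marks, were lower at all 3 sites. Zmynd11 had 0.465% and 0.164% at its leading site, and Gm36423 lies opposite both of its sites, with the same 41 bases at the other one.

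At 3 member sites no aged cell was methylated: Ncor1 exon 25, Chd9 exon 12 and the Zfp866 3′ UTR, with 31, 26 and 31 methylated young cells. A count of 0 among 846 aged cells leaves room for a share as high as 0.355%, taking 3 cells as the limit, and the exact 95% interval reaches 0.435%. The young shares were 1.18% (0.804 to 1.67), 0.991% (0.648 to 1.45) and 1.18% (0.804 to 1.67). At these sites C-to-U inside the young cells called methylated was 91.8%, 91.1% and 92.6%. They were the only member sites above 90% in young cells, where the median over member sites was 38.7%. The table lists 19 sites with no methylated aged cell in all, with a median of 58.7%, and 5 of them exceeded 90%. Whether the C-to-U calls at the 3 member sites come from editing or from a genomic base that differs between the mice was not tested. The adjusted p in the authors' deposited table was 0.0472 for Ncor1, 0.0488 for Chd9 and 0.00503 for Zfp866, where Gm20422 is annotated on the same strand.

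The mean is a product: the share of methylated cells times the level of C-to-U inside them. These factors differed in direction. The share was higher in aged cells at 52 of 64 member sites (81.3%, 69.5 to 89.9), beside 75.4% of all listed sites. At 14 of these 52 the mean was lower, and C-to-U within methylated aged cells was only 0.508% to 6.67%. The lowest level at which a cell was called methylated is not stated. A higher share can thus rest on calls at low levels. The table as a whole had a median log2 ratio of shares of 1.13, and 37 of the 64 member sites exceeded it. The level within methylated cells was higher at 24 of the 61 sites with a methylated aged cell (39.3%, 27.1 to 52.7), beside 31.9% of all listed sites. The share intervals of the ages did not overlap at 37 member sites in the higher direction (47.4% of all listed sites) and at 3 in the lower (15.1% of all). Those 3 were the Ncor1, Chd9 and Zfp866 sites without methylated aged cells.

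**Figure D2:**
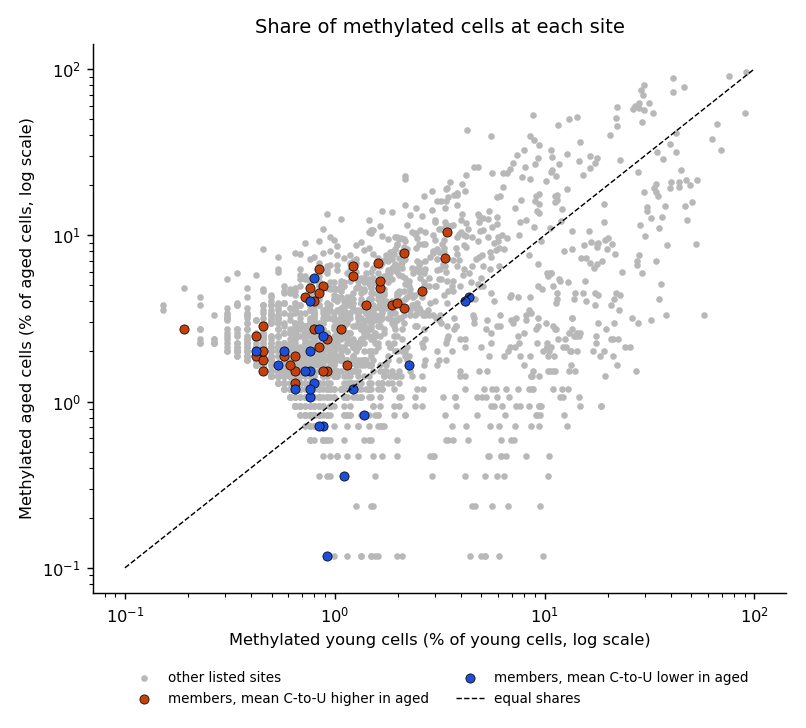
Methylated aged cells (% of 846 aged cells, y axis, log scale) against methylated young cells (% of 2623 young cells, x axis, log scale) for listed sites with at least 1 methylated aged cell, grey for other genes and coloured for the 61 member sites by direction of the mean. All orange points (mean higher) lie above the dashed line of equal shares, while blue points (mean lower) lie on both sides of it.

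Member sites with a higher mean all had a higher share, and most of their difference was in the share. At the 38 higher sites the share was higher at 38 and C-to-U within methylated cells at 24. Over all 852 listed sites with a higher mean these were higher at 96.8% and 56.1%. The median log2 ratio at the 38 member sites was 1.71 for the share and 0.12 for C-to-U within cells. Over the 852 sites it was 1.66 and 0.0947, so the members shared this with the whole list. The 23 lower member sites with a methylated aged cell fell into a pair of patterns. At 14 of them the share was higher in aged cells, with a median log2 ratio of 1.45, while C-to-U within methylated cells had a median of 14.6% in young and 1.23% in aged cells. Ankrd11, Bptf, Nsd1, Zmynd8 and Chd3 belong here. The share intervals of the ages did not overlap at 7 of the 14, and did at Zmynd8 and Chd3. Over the whole list a lower mean with a higher share held at 725 of 1184 lower sites with a methylated aged cell, a similar proportion. At the other 9 member sites the share was lower too, as at Kmt2a exon 30, Baz2a, Zbtb18 and Zfp462. Their median log2 ratio was -0.31 for the share and -1.42 within cells. The share intervals of the ages overlapped at all 9, so a lower share was not resolved there.

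**Figure D3:**
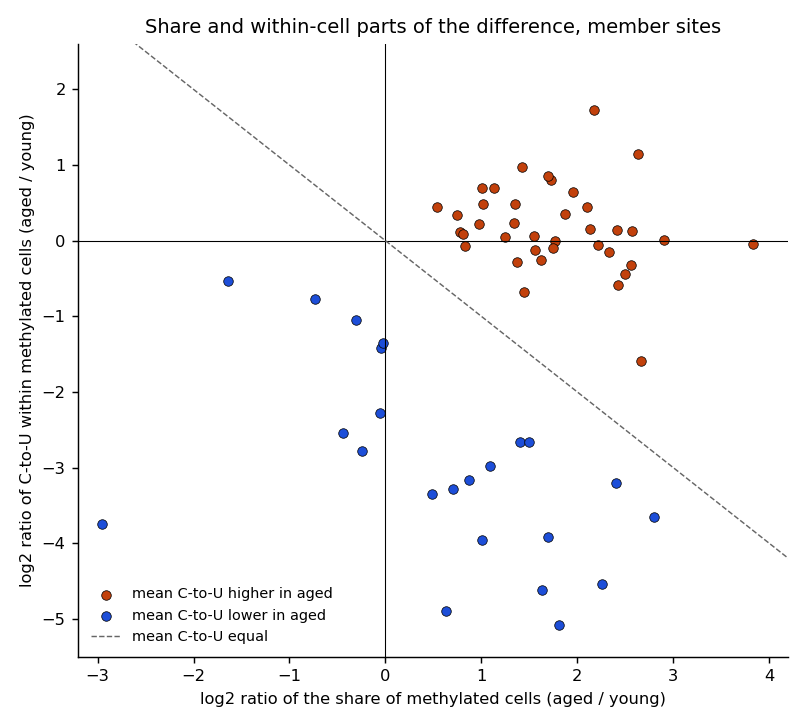
Log2 ratio (aged over young) of C-to-U within methylated cells (y axis) against that of the share of methylated cells (x axis) at the 61 member sites with a methylated aged cell, with the dashed line where the mean is equal. Orange points (38 sites with a higher mean) all lie right of 0 on the x axis, and blue points (23 lower) all lie below 0 on the y axis, 14 of them with a larger share.

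By region, 46 member sites lay in coding sequence (71.9%, beside 38.7% of all listed sites) and 18 in 3′ UTRs (28.1%, beside 33.8%). Coding sites were higher by mean at 30 of 46 (65.2%, 49.8 to 78.6), beside 58.0% of all listed coding sites. In 3′ UTRs 8 of 18 were higher (44.4%, 21.5 to 69.2), beside 24.1%. By share, 42 of 46 coding sites and 10 of 18 in 3′ UTRs were higher, beside 94.7% and 49.1%. By C-to-U within methylated cells, 20 of 44 coding sites and 4 of 17 in 3′ UTRs were higher, beside 35.6% and 36.7%. Member coding sites lay at a median of 3471 bases before the end of the coding sequence, beside 1552 for all listed coding sites. These distances were not scaled to the length of the coding sequence, so the part of gene length was not tested. Their exons had a median length of 218 bases, close to the 212 of all, and 12 of 46 lay in exons over 400 bases, beside 34.0% of all. All 18 sites in 3′ UTRs lay in the last exon of their transcript.

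Direction differed with the letters before the edited C. The pattern GAAC, ending in the edited C and read on the transcript strand, was picked after the sequences and values had been seen. It stood at 21 member sites in 17 genes (32.8%), beside 16.4% of all listed sites and 1.63% of all C in the 39 transcripts that carry member sites. By the mean, 20 of the 21 were higher in aged cells (95.2%, 76.2 to 99.9), as were 18 of the 43 other member sites (41.9%, 27.0 to 57.9). Ankrd11 held the exception. The 20 include Smarca4, Smarcc1, both Chd5 sites, Zfp318, Nsd3, Setd2 and the 3 Ankrd12 sites in exon 9. The median log2 ratio of the mean was 1.84 with the pattern and -1.26 without it, beside 1.39 and -1.10 over all listed sites. Over the whole list 265 of 338 sites with the pattern were higher (78.4%), and 34.2% of those without it. Region enters these counts, because 20 of the 21 member sites with the pattern were coding. In 3′ UTRs of the whole list 24 of 57 sites with it were higher (42.1%).

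Within coding sequence the member counts were 19 of 20 with GAAC and 11 of 26 without. Over all listed coding sites they were 220 of 249 (88.4%) and 242 of 547 (44.2%), so the members shared this split with the table. The share of methylated cells separated the classes less, being higher at 20 of 20 and 22 of 26 member coding sites, beside 97.2% and 93.6% of all listed coding sites with and without GAAC. C-to-U within methylated cells separated them more, at 14 of 20 and 6 of 24, beside 61.4% and 23.7%. At coding GAAC sites the edited C was the first base of its codon at 18 of 20 member sites, beside 62.2% of all listed coding GAAC sites. Of all C in the coding sequence of the same transcripts, 32.4% were first bases. That figure covers every C. The frame of GAAC itself in these transcripts was not counted, so a frame bias of the pattern was not tested. At the 26 other member coding sites the edited C was the first base at 8. An A stood before the edited C at 59 of 64 member sites (92.2%), beside 74.6% of all listed sites. By region the gap was smaller in coding sequence, with 89.1% of member sites beside 80.4% of all listed ones. In 3′ UTRs it was 100% beside 80.7%. The 5 exceptions were Kmt2a exon 30, Baz2a, Nsd1, Zfp148 and 1 Smarca2 site, of which Zfp148 was higher.

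Adenine-rich windows formed the other class. In 13 member sites of 10 genes at least 14 of the 21 bases were A (20.3%, beside 13.9% of all listed sites and 0.238% of windows around all C in the same transcripts). This limit, too, was set after the sequences had been seen. Of the 13, 10 lay in 3′ UTRs, where they made up 10 of the 18 member sites, as at Brd3, Zfp462, Zfp612, Zfp704 and Zmynd11. Mean C-to-U was higher in aged cells at 5 of 13 and C-to-U within methylated cells at 0 of 13 (an upper limit of 24.7%), beside 36.0% and 19.9% of all listed sites in such windows. The share of methylated cells was higher at 9 of 13, near the 64.7% of all listed sites in such windows.

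**Figure D4:**
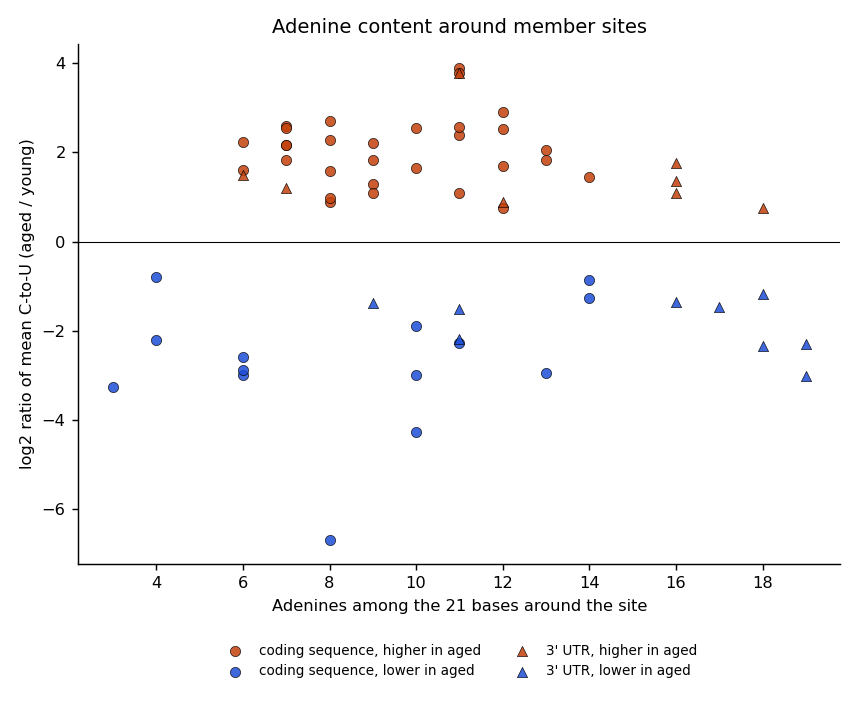
Log2 ratio of mean C-to-U (aged over young, y axis) against the number of adenines among the 21 bases around the site (x axis) for the 61 member sites with a methylated aged cell, circles in coding sequence and triangles in 3′ UTRs, orange higher and blue lower in aged cells. Sites with 14 or more adenines are mostly triangles and lie on both sides of 0, 5 above and 8 below.

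Of the 39 genes, 15 had more than 1 listed site. In 10 of these the mean went in the same direction at every site, higher in Ankrd12, Baz1b, Atrx, Chd5, Chd8, Kmt2e and Zfp704 and lower in Ankrd11, Brd3 and Zmynd11. Both directions were seen in Smarca2, Chd9, Kmt2a, Ash1l and Ncor1. The same count over all listed genes is not given here. Sites of a gene share its expression, and those a few bases apart can lie on the same reads, so they are not independent measurements.

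Other chromatin and transcription regulators outside the name rule were looked up from a list of 145 genes. Of these, 24 had listed sites, 16 higher and 8 lower at the leading site, beside 55.8% higher over all listed genes. By site, 19 of their 35 were higher (54.3%, 36.6 to 71.2), beside 41.5% of all listed sites. Peg3, an imprinted zinc finger gene, went from 0.893% to 4.37%, and its share of methylated cells was 1.83% (1.35 to 2.42) and 7.33% (5.66 to 9.30). Dnmt3a, a DNA methyltransferase, went from 0.535% to 2.57%, and Crebbp, a histone acetyltransferase, from 0.160% to 0.352%. Hivep3, a large zinc finger gene, was the largest decrease, from 2.04% to 0.473%.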

How the data were processed

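Libraries were made from fixed cortex cells by split-pool barcoding, per the labels' protocols. The submitters' processing notes name STAR 2.7.5 and the mm10 build, and Bullseye, a caller of C-to-U sites, is named in the series' design text. These sources state no filter, molecular identifier, scaling between ages or test behind the p-values. In the deposited table the authors give, for each site and age, the percent of cells methylated, the count of methylated cells (cells, not reads), the C-to-U fraction as a mean over all cells and over methylated cells, a p-value, an adjusted p-value, and the log2 ratio of young over aged means. Fractions are printed here as percent, and the log2 ratio was recomputed as aged over young.

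Positions were read as counted from 0 and are printed from 1. The base was then C at all 64 member sites, and sites were placed on the highest-ranked GENCODE M21 transcript of the gene with an exon there. Members and lists were chosen with earlier results of these data known. Named genes were the 8 largest increases and 8 largest decreases, genes with 3 or more sites, 2 per family and sites with no methylated cell at an age, and the other member genes were added after their values were seen. Cells of 1 age are not replicates, so no test was added. Counts were checked on simulated tables. Python 3.11.15, pandas 2.3.3 and scipy 1.17.1 were used. Alternatives changed the cell minimum, the adjusted p limit, the sites kept and the rule for a gene's direction. Items withheld from this text are counted in the totals and not reported one by one.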

Additional observations from a re-analysis of the deposited data

How the results depend on the processing

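Of 65 alternative values computed for 7 results, 58 stayed within the exact 95% interval, taken across sites or genes, of the value reported and 7 did not. With at least 50 methylated cells over both ages, 80.0% of member sites, 84.2% of member coding sites and 84.2% of member genes were higher by mean C-to-U, and the median log2 ratio was 1.83, on 25 sites. That limit keeps fewer sites, and the cause of the shift was not tested. The shares over all listed sites and genes at that limit are not given here. These values therefore have no background and cannot be read as particular to the members. By share of methylated cells 81.3% of sites were higher and by C-to-U within methylated cells 39.3%, so the direction depends on the measure. Relative to the median shift of all listed sites, a setting added after seeing the data, the share was higher at 57.8% of sites. Leaving out Smarca2, sites without a methylated aged cell, adenine-rich windows, sites under other genes or sites whose C does not follow an A gave 60.3% to 64.7% of sites higher by mean; the 3 settings on missing aged cells, adenines and other genes were also added after seeing the data. Leaving out a library or a mouse was not possible because the table holds 1 pooled value per age, and no paired analysis was possible because there is 1 group of libraries. The exact interval of the median log2 ratio over member sites ran from -1.16 to 1.60, on both sides of 0. Methylated cells per site, a median of 22 young and 17.5 aged, limit the precision of each share, and read depth is unknown.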
